A study of Mus musculus with 7 samples.

Results

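The interferon genes examined here are 46 gene symbols of interferon signaling and of the response to interferon, Ly6e among them, which were chosen by name. Of these, 45 had a row among the 34592 genes of the deposited counts, and the 45 genes were all among the 17389 that passed the filter on low counts. The lowest count of any of the 45 genes in any tumor was 20. Ifi27 had no row under that symbol. A RefSeq gene table lists Ifi27l1 as an older symbol of Ifi27, and Ifi27l1 has a row and is described with the related genes.

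RNA was sequenced from 7 mouse G3 MBs (Group 3 medulloblastomas), which grew in the cortices of CD1-nu/nu mice after transplantation of 1 tumorsphere line, # 19568. The line came from cerebellar granule neuronal progenitors with MSCV retroviruses for Myc and GFP, and the study's methods give these progenitors as Trp53-/-; Cdkn2c-/-, so both groups share this background. A figure legend of the study names RFP, not GFP, for this line. The paper's account of the RNA sequencing does not name a line. In 4 tumors labelled WDR11OE the spheres had been infected with the lentivirus pCDH-EF1-WDR11-T2A-copGFP, in which the EF1 promoter drives human WDR11. In 3 control tumors they had been infected with the empty vector pCDH-EF1-MCS-T2A-copGFP, although the treatment label of the controls reads none. Infection reached only part of the cells, which were transplanted unsorted, and each tumor was taken when its host became moribund. CD1-nu/nu mice lack mature T cells and keep B cells, NK cells and myeloid cells. The labels do not say whether the tumors of a group came from separate infections, and p-values then measure only the spread between these tumors. Sample numbers form a separate series in each group, and the format of the titles also differs between the groups. The labels do not explain this, and a difference in processing could not be told apart from the group label.

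Total counts were between 33417175 and 41397427 in the controls and between 32116095 and 87141305 in the tumors labelled WDR11OE, where replicates 2 and 4 were the deepest. The counts have a row named hWDR11, which was measured at 2.03, 2.19 and 3.13 CPM (counts scaled to the size of the library) in control replicates 1 to 3 and at 4.38, 2.11, 3.05 and 0.624 CPM in WDR11OE replicates 1 to 4. The groups overlapped, and WDR11OE replicate 4 lay below every control, so this row does not bear out the labels (log2 fold change 0.05, standard error 0.58, edgeR adjusted p = 0.961). Controls with the empty vector also had counts in it, and how the row was counted is not given in the sources used here. For this reason the groups are called by their labels throughout. The study reported increased WDR11 transcripts in tumors by qRT-PCR, and WDR11 protein by immunofluorescence in tumorspheres from secondary tumors. The study does not say whether those were the sequenced tumors. Mouse Wdr11 was measured between 58.3 and 59.3 CPM in control tumors and between 61.0 and 68.9 CPM in tumors labelled WDR11OE (log2 fold change 0.16, edgeR adjusted p = 0.0910). Of 10 markers of the tumor's lineage, 8 passed the filter on low counts, with Pax6 between 17.2 and 31.2 CPM, Nes between 44.2 and 51.6 CPM and Sox2 between 16.1 and 26.8 CPM over the 7 tumors. Zic1 varied more, at 7.63 to 12.1 CPM in controls and at 2.06, 1.76, 7.67 and 16.8 CPM in WDR11OE replicates 1 to 4. Zic2 was between 2.57 and 7.33 CPM, Neurod1 between 0.0237 and 2.54 CPM and Mycn between 0.3065 and 2.30 CPM. Zic1, Zic2, Neurod1, Mycn and Pax6 were highest in WDR11OE replicate 4. Atoh1 was at 0 counts in all 7 tumors and Barhl1 had 1 count in 1 tumor. Myc, which the retrovirus carries, was between 812 and 1109 CPM in controls and between 278 and 431 CPM in tumors labelled WDR11OE.

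Type I interferons are secreted proteins that bind a receptor made of IFNAR1 and IFNAR2. The receptor's kinases then start a complex that holds STAT2 and IRF9 and binds a promoter sequence called ISRE (interferon-stimulated response element), whereas interferon gamma acts on a sequence called GAS. The genes induced in this way make sensors of foreign RNA and DNA, proteins that block viral entry or translation, and further signaling proteins. In the brain, microglia, astrocytes and endothelial cells respond to interferon as well as tumor cells.

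Ly6e, Ifnar1 and Samhd1 were lower in the tumors labelled WDR11OE than in controls, and Bst2, Igtp, Ifi35, Ifitm1 and Irf3 were higher. The largest decrease was that of Ly6e, to 0.339 of its control level, and the largest increase was that of Igtp, 3.62-fold. The other 37 interferon genes did not pass the test, and most of them were highest in a single tumor, WDR11OE replicate 4. In bulk tumors, fewer cells of a type and less RNA per cell cannot be told apart.

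Of the 45 genes, 8 passed at an adjusted p under 0.05 (17.8%), against 33.9% of all genes tested. In the direction higher in WDR11OE, 5 of 45 passed (11.1%) against 18.1% of all genes, and in the direction lower 3 of 45 passed (6.67%) against 15.8%. The share of interferon genes that passed was thus below that of all genes in each direction. Among genes with an average log2 CPM above 0 that also differed 2-fold or more, Bst2 and Igtp were higher (4.44% of the 45, against 2.36% of all genes) and Ly6e was lower (2.22%, against 3.45%). The groups did not overlap for 11 of the 45 genes (24.4%), against 42.7% of all genes. Of these, 7 were higher in WDR11OE, where 23.5% of all genes were, and 4 were lower, where 19.1% of all genes were. The 11 genes are the 8 that passed together with Irf1 and Parp9, which were higher, and Ifnar2, which was lower. At an unadjusted p under 0.05 in edgeR, 12 of the 45 genes were counted, against 7623 of all 17389 genes tested, which is a larger share. The log2 fold change was positive for 36 genes and negative for 9, with a median of 0.48, against 0.08 over all genes tested.

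**Figure D1:**
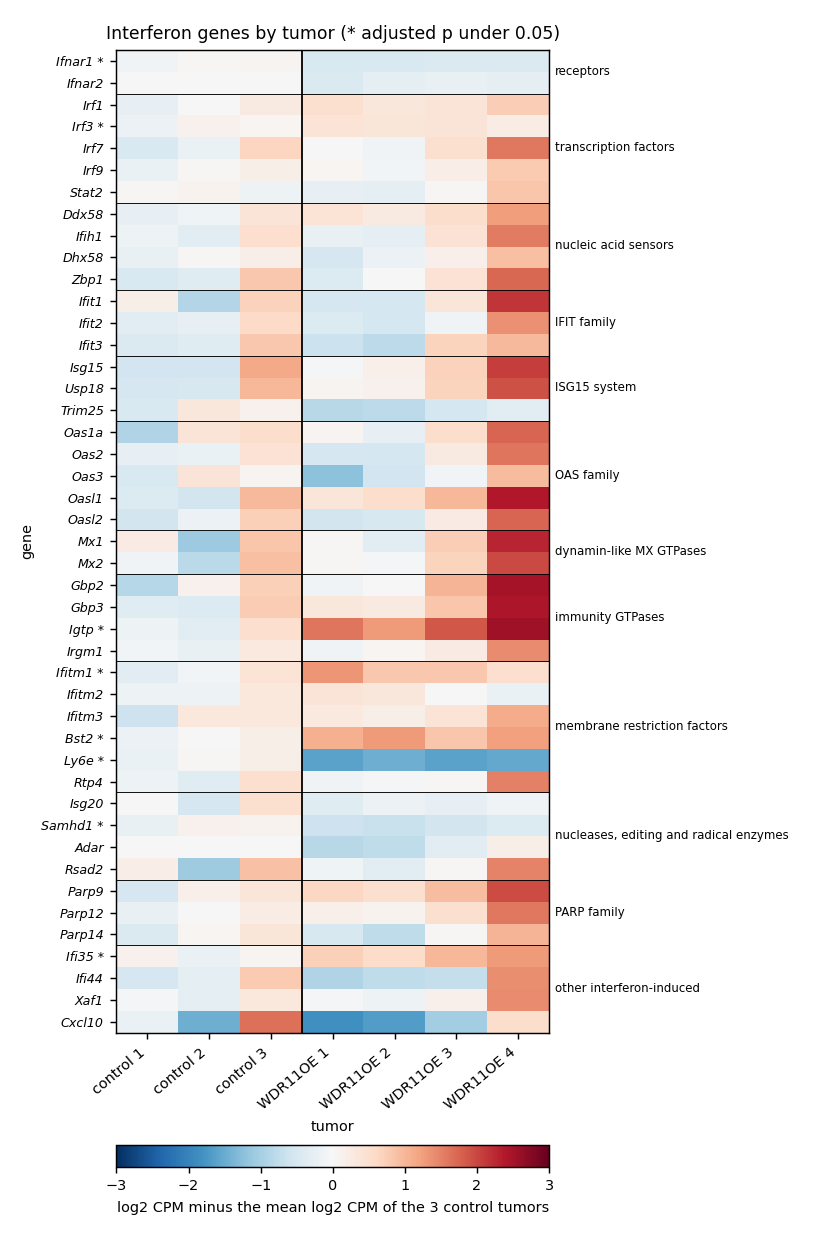
Levels of the 45 interferon genes (rows, grouped by role) in the 7 tumors (columns), as log2 CPM minus the mean log2 CPM of the 3 control tumors; red is above and blue below that mean, and an asterisk marks an adjusted p under 0.05. The column of WDR11OE replicate 4 is the reddest for 34 of the 45 genes, while Ly6e is blue in all 4 tumors labelled WDR11OE.

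Promoters are shown because genes of this set are known for the ISRE. RefSeq windows of 300 bases (GRCm38.p6, from 250 bases before to 50 bases after the start of a transcript) were at hand for 35 of the 45 genes. The ISRE-like letters searched were GAAA, any 2 bases and GAAA, which read TTTC, any 2 bases and TTTC when they lie on the other strand. They were in the windows of 17 of these 35 genes (48.6%), against 3.99% of the 27025 genes with a window. The GAS-like letters TTCNNNGAA, which read the same on both strands and can overlap the former, were in 12 of the 35 (34.3%), against 9.55% of all genes with a window. Among the genes that passed the test, 2 of 7 with a window held the ISRE-like letters, and among those that did not pass, 15 of 28 did. The GAS-like letters were in 5 of 7 genes that passed and in 7 of 28 that did not, and neither difference was tested. The 2 genes that passed and held the ISRE-like letters are Igtp and Bst2, and 5 genes whose level among the tumors labelled WDR11OE was highest in replicate 4 are set beside them. Capitals mark the ISRE-like letters, and each sequence is written 5′ to 3′ on the strand of the gene.
Igtp: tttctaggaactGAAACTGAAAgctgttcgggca
Bst2: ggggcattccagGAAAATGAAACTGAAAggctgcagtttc
Ifit1: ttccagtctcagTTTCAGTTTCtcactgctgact
Gbp2: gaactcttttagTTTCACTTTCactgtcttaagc
Gbp3: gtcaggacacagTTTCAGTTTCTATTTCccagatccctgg
Cxcl10: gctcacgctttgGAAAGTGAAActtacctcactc
Isg15: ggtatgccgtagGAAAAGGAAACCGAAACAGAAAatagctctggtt
The capitals lie 25 to 34 bases upstream of the start in Igtp (chr11:58199510-58199543, plus strand), 115 to 130 bases upstream in Bst2 (chr8:71537575-71537614, minus strand), and 76 to 85 bases upstream in Ifit1 (chr19:34640792-34640825, plus strand), which has a second match. They lie 50 to 59 bases upstream in Gbp2 (chr3:142620592-142620625, plus strand), 30 to 45 bases upstream in Gbp3 (chr3:142559987-142560026, plus strand), 204 to 213 bases upstream in Cxcl10 (chr5:92349081-92349114, minus strand) and 57 to 78 bases upstream in Isg15 (chr4:156200863-156200908, minus strand). The same letters thus stand before genes whose groups did not overlap and before genes whose groups overlapped, and a match is no measure of binding.

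Of the 45 genes, Ly6e had the smallest adjusted p. It makes a lipid-anchored membrane protein that restricts the entry of coronaviruses (chromosome 15, positions 74785481 to 74790335, NCBIM37, as for all gene positions given below). It was measured at 63.1, 73.9 and 82.4 CPM in control replicates 1 to 3 and at 23.7, 26.5, 23.8 and 25.3 CPM in WDR11OE replicates 1 to 4. The 4 tumors labelled WDR11OE lay close together and below all controls, and replicate 4 did not stand apart. The lowest control was 2.38 times the highest tumor labelled WDR11OE. The log2 fold change was −1.56 (standard error 0.10, edgeR adjusted p = 0.000858), and it lay between −1.66 and −1.38 in every alternative setting. It was the only one of the 45 genes that passed a test against a 2-fold change. Of 24 related genes of the Ly6 family and neighbours of Ly6e, 15 passed the filter and edgeR called 0 of them, with 1 at an unadjusted p under 0.05 and with limma voom calling 0 and DESeq2 calling 1. Among these, Lypd6 alone did not overlap between the groups, at 13.6 to 15.3 CPM in control and 11.4 to 12.5 CPM in tumors labelled WDR11OE (log2 fold change −0.26, edgeR adjusted p = 0.0931), and it was named after its values were seen.

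Both receptor chains were lower in each tumor labelled WDR11OE than in any control. Ifnar1, the chain needed for the response to all type I interferons (chromosome 16, positions 91485483 to 91507686), was measured at 59.0, 64.5 and 67.1 CPM in controls and at 45.9, 46.0, 46.8 and 47.0 CPM in tumors labelled WDR11OE. The tumors labelled WDR11OE spanned a narrow range below the lowest control. On the log2 scale this was a change of −0.45 (standard error 0.06, edgeR adjusted p = 0.00221). Ifnar2, the chain with the higher affinity for the ligand, was at 14.8, 14.6 and 14.5 CPM in controls and at 10.9, 12.01, 12.6 and 12.1 CPM in tumors labelled WDR11OE. Its groups were separate, but the gene did not pass (log2 fold change −0.30, standard error 0.10, edgeR adjusted p = 0.0607), and it passed with limma voom (adjusted p = 0.0390) and DESeq2 (adjusted p = 0.00325), with 0.00325 to 0.150 over the settings other than the test against a 2-fold change. An exon of Il10rb lies over Ifnar2 on the same strand, so reads of the 2 genes may be shared.

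Among the transcription factors, Irf3, which the sensors of nucleic acids activate to start interferon transcription, was higher (chromosome 7, positions 52253018 to 52258218). It was at 24.0, 29.6 and 28.7 CPM in controls and at 36.6, 35.3, 35.7 and 31.9 CPM in tumors labelled WDR11OE. All 4 tumors labelled WDR11OE were above the controls, and replicate 4 was the lowest of the 4. Its log2 fold change was 0.35 (standard error 0.10, edgeR adjusted p = 0.0302). This call was lost without control replicate 1 (edgeR adjusted p = 0.0738), control replicate 3 (0.0594), or WDR11OE replicate 1 (0.182), 2 (0.172) or 3 (0.0714). It was also lost with WDR11OE replicates 1 and 2, whose titles share a number, as 1 sample (0.175), with DESeq2 (0.0509) or its size factors in edgeR (0.0763), with a filter of 1 CPM in 3 tumors (0.0527) and without the filter (0.130), with a range of 0.00754 to 0.182 over the same settings. Exons of Bcl2l12 lie over Irf3 on the opposite strand, and the strand setting of the counting is not given in the sources used here.

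Irf1, a factor that interferon gamma induces, was at 8.53, 10.01 and 12.3 CPM in controls and at 14.1, 12.9, 13.3 and 17.04 CPM in tumors labelled WDR11OE. Again the groups were separate and the gene did not pass (log2 fold change 0.48, standard error 0.17, edgeR adjusted p = 0.0654), except without control replicate 3 (0.0398) and in 5 other settings. Irf7, which amplifies interferon transcription, was at 5.03, 6.01 and 10.7 CPM in controls and at 6.75, 6.39, 9.64 and 20.5 CPM in tumors labelled WDR11OE. Its groups overlapped, and the highest tumor of each group stood above the others (log2 fold change 0.58, standard error 0.48, edgeR adjusted p = 0.398). Irf9 and Stat2, which encode parts of the complex at the ISRE, were also highest in WDR11OE replicate 4, at 21.2 and 20.8 CPM, while their other 6 tumors lay between 10.7 and 14.2 CPM for Irf9 and between 9.81 and 12.7 CPM for Stat2. Of the 5 factors, 1 passed the test.

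The 4 sensors were Ddx58, which encodes RIG-I, Ifih1, which encodes MDA5, Dhx58, which encodes LGP2 and modulates both, and Zbp1, a sensor of Z-form nucleic acid. The test in edgeR called 0 of 4, with 0 at an unadjusted p under 0.05 and 0 with limma voom or DESeq2. Ddx58 was at 9.92, 10.8 and 15.5 CPM in controls and at 15.8, 14.3, 17.2 and 28.1 CPM in tumors labelled WDR11OE. WDR11OE replicate 4 was the highest tumor for all 4 sensors, and control replicate 3 was the highest control for all 4. The level in replicate 4 was between 1.78 (Ddx58) and 3.17 (Zbp1) times the mean of the other tumors labelled WDR11OE.

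The IFIT proteins bind foreign RNA and block its translation, and ISG15 is a ubiquitin-like protein that USP18 removes from its targets, while TRIM25 is a ligase of the RIG-I pathway. Ifit1 was at 6.25, 2.98 and 8.89 CPM in controls and at 3.88, 3.79, 7.09 and 24.4 CPM in tumors labelled WDR11OE. Only replicate 4 was above the range of the controls, and its level was 4.97 times the mean of the other 3, the highest such ratio of the 45 genes. Isg15 was at 1.95, 1.96 and 6.38 CPM in controls and at 2.82, 3.22, 4.68 and 12.2 CPM in tumors labelled WDR11OE, so that 1 tumor stood above the others in each group. Ifit2, Ifit3 and Usp18 had their highest level in replicate 4 and their highest control level in replicate 3 as well. Among these 6 genes edgeR called 0, with limma voom calling 0 and DESeq2 calling 1, which was Trim25.

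Trim25 was different from the rest of this group. It was at 6.25, 10.8 and 9.35 CPM in controls and at 4.83, 4.95, 5.92 and 6.81 CPM in tumors labelled WDR11OE. The groups overlapped through control replicate 1 and WDR11OE replicate 4 (log2 fold change −0.64, standard error 0.23, edgeR adjusted p = 0.0661). It passed without control replicate 1 (edgeR adjusted p = 0.0232) and without WDR11OE replicate 4 (0.0456), with a range of 0.0161 to 0.214 over the same settings.

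The OAS enzymes make a messenger that activates RNase L, Oasl1 is a relative without this activity, and the MX proteins are GTPases that trap viral particles. In these 7 genes edgeR called 0, with 0 at an unadjusted p under 0.05 and 0 with limma voom or DESeq2, and all 7 were highest in WDR11OE replicate 4. Oasl1 was at 1.33, 1.22 and 3.46 CPM in controls and at 2.30, 2.56, 3.54 and 9.37 CPM in tumors labelled WDR11OE. Mx1 was at 2.78, 1.097 and 4.14 CPM in controls and at 2.39, 1.86, 3.91 and 11.3 CPM in tumors labelled WDR11OE. In both genes the tumors other than replicate 4 lay within a common range or just above it. The summed level of the 5 OAS genes was 8.84, 12.5 and 20.3 CPM in controls and 10.5, 10.7, 17.1 and 44.6 CPM in tumors labelled WDR11OE.

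Among the GTPases of cell-autonomous immunity, Igtp, which encodes IRGM3 and guards vacuoles of pathogens, was higher (chromosome 11, positions 58013058 to 58021093). It was at 3.61, 3.17 and 5.70 CPM in controls and at 12.2, 9.77, 14.7 and 23.5 CPM in tumors labelled WDR11OE. All 4 tumors labelled WDR11OE were above the highest control, and replicate 4 was the highest of them. Its log2 fold change was 1.85 (standard error 0.36, edgeR adjusted p = 0.00758), and without replicate 4 it was 1.55. Its adjusted p lay under 0.05 in every setting but the test against a 2-fold change (0.353). Irgm1, a regulator of the same family, was at 9.78, 8.82 and 12.6 CPM in controls and at 9.59, 10.7, 12.1 and 27.7 CPM in tumors labelled WDR11OE, and only replicate 4 lay above the controls. Gbp2, which encodes a protein that coats vacuoles of pathogens, was at 2.00, 3.98 and 6.01 CPM in controls and at 3.39, 3.58, 7.30 and 20.6 CPM in tumors labelled WDR11OE, and Gbp3 went to 28.0 CPM in replicate 4. Igtp thus differed from Irgm1, Gbp2 and Gbp3 in its levels in replicates 1 and 2, which were above every control.

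Bst2, also called tetherin, holds budding virions at the cell surface (chromosome 8, positions 74058163 to 74061336). It was at 20.5, 23.2 and 26.5 CPM in controls and at 48.6, 56.4, 41.3 and 54.7 CPM in tumors labelled WDR11OE. The groups were far apart and replicate 4 lay inside the range of its group. The log2 fold change was 1.10 (standard error 0.14, edgeR adjusted p = 0.00156), and it lay between 0.90 and 1.29 in every alternative setting.

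The IFITM proteins hinder the fusion of viruses with endosomes, and they sit side by side on chromosome 7 and are similar enough that reads may be shared between them. Ifitm1 (positions 148153120 to 148155724) was at 10.7, 12.7 and 17.8 CPM in controls and at 33.8, 23.6, 23.6 and 18.9 CPM in tumors labelled WDR11OE. No tumor of one group reached the other, but control replicate 3 and WDR11OE replicate 4 were close, and replicate 4 was the lowest of its group. The log2 fold change was 0.86 (standard error 0.25, edgeR adjusted p = 0.0323). This call was lost without control replicate 1 (edgeR adjusted p = 0.0965) or 2 (0.108), without WDR11OE replicate 1 (0.0922), 2 (0.0850) or 3 (0.0614), with WDR11OE replicates 1 and 2 as 1 sample (0.0841) and without the filter (0.0560), with a range of 0.00890 to 0.108 over the same settings. Ifitm2, per length the most abundant of the 45 genes at a mean of 117 RPKM (CPM per kilobase of exon), was at 64.0, 64.1 and 88.1 CPM in controls and at 92.9, 90.5, 72.1 and 61.6 CPM in tumors labelled WDR11OE. Here replicate 4 was the lowest of all 7 tumors (log2 fold change 0.14, standard error 0.18, edgeR adjusted p = 0.607). Ifitm3, with a mean of 23.3 RPKM, was at 7.98, 15.4 and 15.3 CPM in controls and at 15.1, 13.9, 16.4 and 26.7 CPM in tumors labelled WDR11OE (log2 fold change 0.48, standard error 0.31, edgeR adjusted p = 0.282). Rtp4, the remaining gene of the membrane group, was at 2.28, 1.98 and 3.62 CPM in controls and at 2.35, 2.42, 2.62 and 7.17 CPM in tumors labelled WDR11OE, and only replicate 4 lay above the controls.

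Samhd1, which depletes the nucleotides that viruses need for DNA synthesis, was lower (chromosome 2, positions 156923265 to 156961001). It was at 32.3, 40.8 and 40.1 CPM in controls and at 24.5, 23.8, 25.6 and 28.0 CPM in tumors labelled WDR11OE. All tumors labelled WDR11OE lay below the lowest control. Its log2 fold change was −0.57 (standard error 0.11, edgeR adjusted p = 0.00657), and with the trend on exon length removed it was −0.38 and did not pass (0.0597, with a range of 3.62e-06 to 0.0597 over the same settings). Adar, which edits adenosine in double-stranded RNA, had a mean of 6.76 RPKM. It was at 53.6, 52.4 and 52.7 CPM in controls and at 29.7, 31.2, 42.2 and 59.4 CPM in tumors labelled WDR11OE. The controls were nearly equal, and WDR11OE replicates 1 to 3 lay below them and replicate 4 above (log2 fold change −0.38, standard error 0.24, edgeR adjusted p = 0.260). Without replicate 4 the log2 fold change of Adar was −0.63 and it passed (edgeR adjusted p = 0.0140), with a range of 0.0140 to 0.5001 over the same settings. Isg20, an exonuclease of RNA, was between 0.620 and 1.23 CPM in all 7 tumors, and Rsad2, which encodes viperin, was at 20.3 CPM in replicate 4 and between 3.46 and 13.4 CPM in the other 6.

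Ifi35, a partner of NMI in inflammatory signaling, was higher (chromosome 11, positions 101309721 to 101320012). It was at 3.42, 2.77 and 3.31 CPM in controls and at 5.14, 4.59, 6.29 and 7.69 CPM in tumors labelled WDR11OE. The groups did not overlap, with replicate 4 the highest of 7. The log2 fold change was 0.91 (standard error 0.23, edgeR adjusted p = 0.0197). This call was lost without control replicate 2 (edgeR adjusted p = 0.0717), control replicate 3 (0.0509) or WDR11OE replicate 3 (0.0517), with a range of 0.00173 to 0.0717 over the same settings. The two-sided exact permutation test over the 35 splits of the tumors gave p = 0.0286 for 7 of the 8 genes that passed. This is the smallest value that test can give. The exact permutation test gave p = 0.0571 for Ifitm1. It also gave p = 0.0286 in the exact permutation test for Ifnar2 and Irf1, which did not pass. The 8 genes were chosen by edgeR on the same tumors, so the permutation test is no independent check of these calls. The groups did not overlap for 42.7% of all genes tested.

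**Figure D2:**
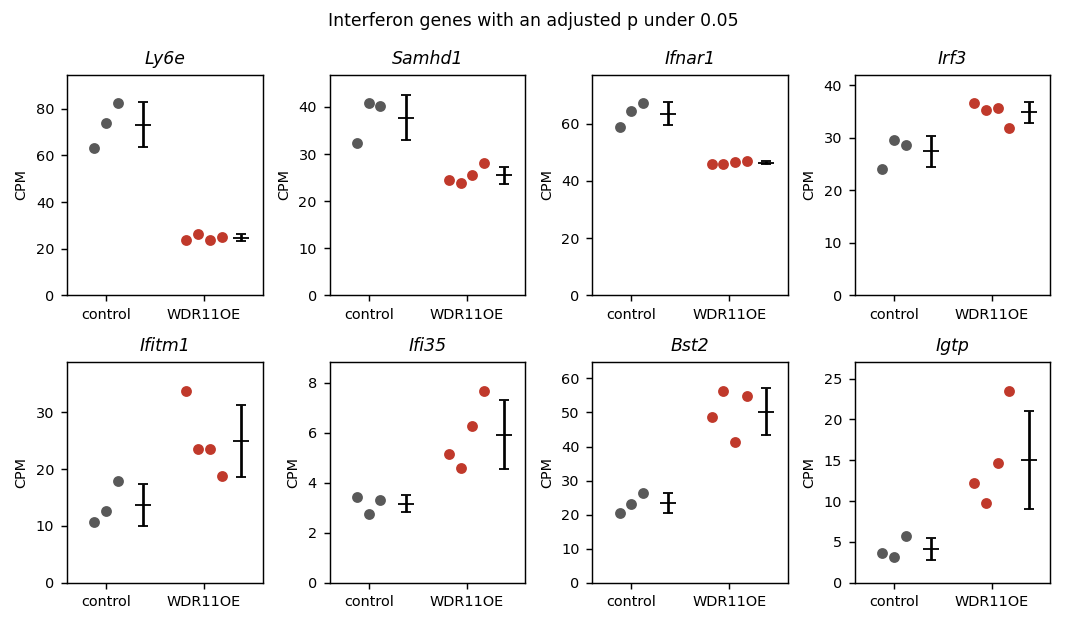
CPM of the 8 interferon genes that passed the test in each of 3 control tumors (grey) and 4 tumors labelled WDR11OE (red, replicates 1 to 4 from left to right), with the mean and SD of each group in black. The groups do not overlap in any panel, and the gap is widest for Ly6e, at 63.1 CPM or above in controls and 26.5 CPM or below in tumors labelled WDR11OE.

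The PARP genes encode ADP-ribosyltransferases or their relatives, and edgeR called 0 of 3, with 1 at an unadjusted p under 0.05, 0 with limma voom and 1 with DESeq2. That gene is Parp9, at 3.64, 5.75 and 6.71 CPM in controls and 8.03, 7.20, 9.89 and 20.3 CPM in tumors labelled WDR11OE. The groups did not overlap (log2 fold change 1.08, standard error 0.42, edgeR adjusted p = 0.0847, and 0.0332 with DESeq2, with a range of 0.0332 to 0.214 over the same settings). Parp12 and Parp14 overlapped between the groups and were highest in replicate 4, at 20.5 and 19.6 CPM. Of the remaining genes, Cxcl10, a chemokine that attracts T cells and NK cells, was at 4.86, 2.00 and 17.6 CPM in controls and at 1.56, 1.73, 2.68 and 8.02 CPM in tumors labelled WDR11OE. Control replicate 3 was the highest of 7 and replicate 4 the highest of its group (log2 fold change −1.21, standard error 0.84, edgeR adjusted p = 0.314), and without control replicate 3 the log2 fold change was 0.03. Ifi44 was at 5.03, 5.94 and 12.3 CPM in controls and at 3.81, 4.23, 4.35 and 18.9 CPM in tumors labelled WDR11OE, so that both groups had 1 tumor far above the rest. Xaf1, which binds an inhibitor of apoptosis, was at 7.58 CPM in replicate 4 and between 2.34 and 3.56 CPM in the other 6.

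WDR11OE replicate 4 was the highest of the 7 tumors for 34 of the 45 genes (75.6%), where it was highest for 25% of all genes tested. It was the highest of the 4 tumors labelled WDR11OE for 39 of the 45, against 37.4% of all genes. Its level was more than 2-fold above the mean of the other 3 for 27 of the 45 (60.0%), against 12.9% of all genes tested. The ratio of replicate 4 to the mean of the other 3 was between 0.699 and 4.97 over the 45 genes. The lowest tumor labelled WDR11OE was replicate 1 or 2 for 41 of the 45. The share over all genes was not counted for this, so nothing particular to the 45 genes is drawn from it.

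Without WDR11OE replicate 4, the median log2 fold change of the 45 genes was −0.03, against −0.01 over all genes, and 22 of 45 were positive, against 36 with all tumors. Of the 32 genes that were highest in replicate 4 and had a positive log2 fold change, 18 had a positive one without it. The sign turned for 14 genes, which were all 3 IFIT genes, Oas2, Oasl2, Ifih1, Dhx58, Zbp1, Stat2, Rsad2, Rtp4, Parp14, Ifi44 and Xaf1. The 8 genes that passed with all tumors passed here as well, together with Adar and Trim25, which were lower. That made 5 higher and 5 lower of the 45, against 2986 higher and 2868 lower of all 16953 genes tested in this setting. The share of all genes was the larger in each direction. The groups did not overlap for 7 higher and 7 lower genes, which are 15.6% and 15.6% of the 45, against 26.0% and 22.9% of all genes.

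**Figure D3:**
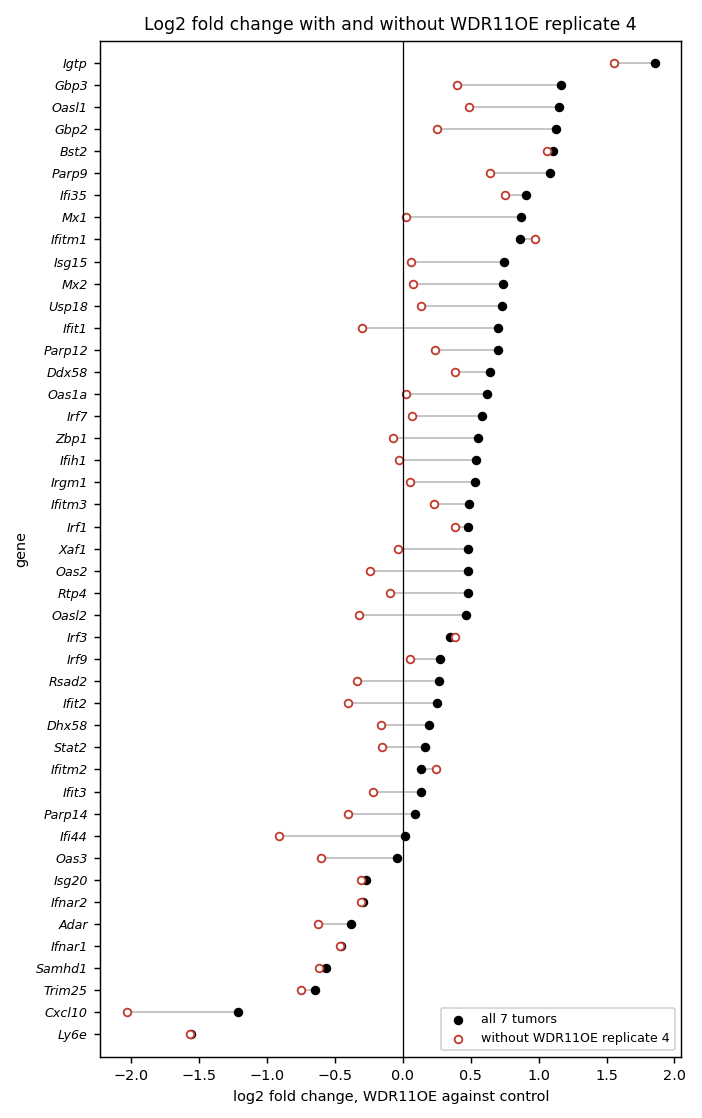
Log2 fold change of the 45 interferon genes (one per line) in tumors labelled WDR11OE against control, with all 7 tumors (filled) and without WDR11OE replicate 4 (open). The points of Ly6e, Ifnar1, Bst2 and Irf3 stay nearly in place, whereas 14 genes cross 0 and the median moves from 0.48 to −0.03.

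A tumor also stood apart among the controls. Control replicate 3 was the highest control for 36 of the 45 genes, against 38.1% of all genes tested, and its log2 level was above the mean of the other 2 controls for 42 of the 45, against 52.2% of all genes. The genes that were high in control replicate 3 were mostly those that were high in WDR11OE replicate 4. Across the 45 genes, which are not independent replicates and share the same libraries, Spearman's rho between the 2 differences was 0.7495, and over all genes tested it was −0.452, given as a description. The median log2 difference of WDR11OE replicate 4 from the other 3 was 1.36 over the 45 genes and 0.02 over all genes, and that of control replicate 3 from the other 2 was 0.61 against 0.02. Within groups, the median SD of log2 CPM was 0.43 in control and 0.72 in WDR11OE for the 45 genes, against 0.21 and 0.20 over all genes.

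**Figure D4:**
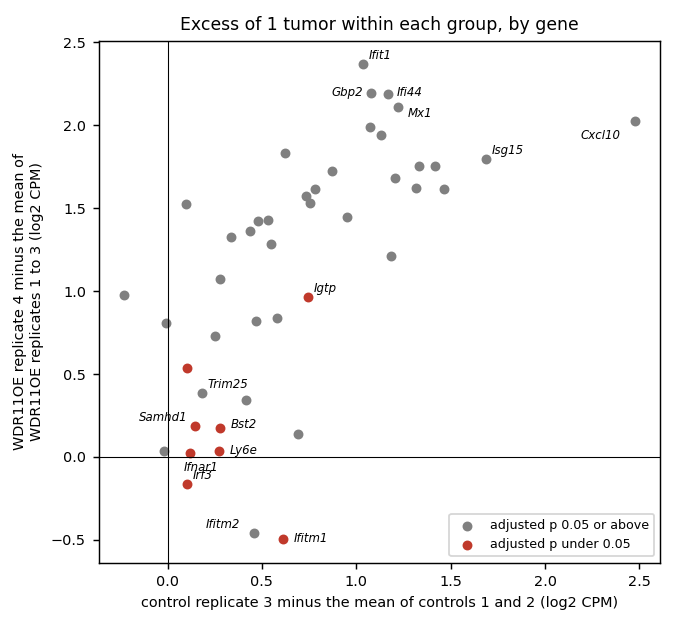
Each point is an interferon gene, placed by how far control replicate 3 lies above the other 2 controls (horizontal, log2 CPM) and how far WDR11OE replicate 4 lies above the other 3 tumors labelled WDR11OE (vertical, log2 CPM). Red marks genes that passed the test, in which a tumor far from its group counts against a call. Ifit1, Gbp2, Ifi44, Mx1, Isg15 and Cxcl10 are high on both axes.

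Markers of host cells were measured beside these levels. Of 17 markers of microglia and macrophages, edgeR called 0, with 1 at an unadjusted p under 0.05, 0 with limma voom and 1 with DESeq2, and their summed level was 202, 466 and 270 CPM in controls and 209, 212, 294 and 374 CPM in tumors labelled WDR11OE. The microglia and macrophage sum was highest in control replicate 2. The 45 interferon genes summed to 513, 562 and 713 CPM in controls and to 550, 538, 586 and 897 CPM in tumors labelled WDR11OE. Among controls both sums were lowest in replicate 1, and the interferon sum was highest in replicate 3. Among the tumors labelled WDR11OE, however, 13 of the 17 markers were highest in replicate 4. The largest ratios there were those of Aif1, Cx3cr1, Csf1r, P2ry12 and Itgam, at 2.56 to 3.75 times the mean of the other 3. Tmem119, Cd68 and Cd14 lay below that mean, at 0.5775, 0.905 and 0.9225 times its value. The median log2 difference of replicate 4 from the other 3 was 0.639 over the 17 markers. The 6 markers of astrocytes, of which S100b was higher, summed to 408, 512 and 421 CPM in controls and to 333, 337, 514 and 757 CPM in tumors labelled WDR11OE. The 8 neuron markers, of which 0 passed in edgeR, 0 at an unadjusted p under 0.05 and 0 in limma voom or DESeq2, summed to 422, 139 and 61.7 CPM in controls and to 11.04, 25.8, 200 and 662 CPM in tumors labelled WDR11OE. The 5 oligodendrocyte markers, of which 0 passed in edgeR, 0 at an unadjusted p under 0.05 and 0 in limma voom or DESeq2, summed to 285, 305 and 104 CPM in controls and to 149.5, 86.2, 119 and 313 CPM in tumors labelled WDR11OE. The sums of the neuron, astrocyte and oligodendrocyte markers were highest in replicate 4, as most interferon genes were, but among controls the neuron and oligodendrocyte sums were lowest in replicate 3, where most interferon genes were highest. The part of these cells in the interferon levels was not tested.

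Transcripts of T cells and NK cells were scarce. The T cell gene Cd3e had 2 counts in control replicate 3 and 0 in the other 6 tumors, and the 9 T cell markers summed to between 1.103 and 1.74 CPM over all tumors. The 7 NK cell markers, Ncr1 and Gzma among them, did not pass the filter, and they summed to 6 to 92 counts per tumor, which is 0.143 to 0.368 CPM in controls, 0.250 to 0.370 CPM in WDR11OE replicates 1 to 3 and 1.01 CPM in replicate 4. The 6 B cell markers summed to between 2.98 and 7.20 CPM over all tumors, with Cd79a alone between 1.598 and 4.36 CPM, and of the 4 that passed the filter edgeR called 0, with 0 at an unadjusted p under 0.05 and 0 with limma voom or DESeq2. The summed levels of markers of endothelium and of fibroblasts and pericytes were lower in tumors labelled WDR11OE, as Ly6e, Ifnar1 and Samhd1 were, although most genes of both lists did not pass. Of 10 endothelial markers 4 were lower (Cdh5, Flt1, Esam and Eng), and the list summed to 151 to 202 CPM in controls and 112 to 126 CPM in tumors labelled WDR11OE. Pecam1, Emcn and Tek had log2 fold changes of 0.12, 0.19 and 0.02 and did not pass. Of 8 markers of fibroblasts and pericytes 3 were lower (Col3a1, Pdgfrb and Pdgfra), and they summed to 3535 to 4389 CPM in controls and 1457 to 1861 CPM in tumors labelled WDR11OE. Most of that sum was Col3a1, at 2722 to 3264 CPM in controls and 1047 to 1234 CPM in tumors labelled WDR11OE, while Dcn, Lum and Rgs5 had log2 fold changes of 1.05, 0.46 and 0.22 and did not pass. All 6 markers of skeletal muscle were higher, as Bst2 and Igtp were. They summed to 1.04 to 1.92 CPM in controls and to 75.0, 41.5, 112 and 35.8 CPM in WDR11OE replicates 1 to 4. The muscle sum was thus highest in replicate 3 and lowest in replicate 4 of this group. Igtp was instead highest in replicate 4, and Bst2 was lowest in replicate 3. In none of these 3 lists did the sums of the groups overlap, and the part of these cells in the levels of the 8 genes was not tested.

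**Figure D5:**
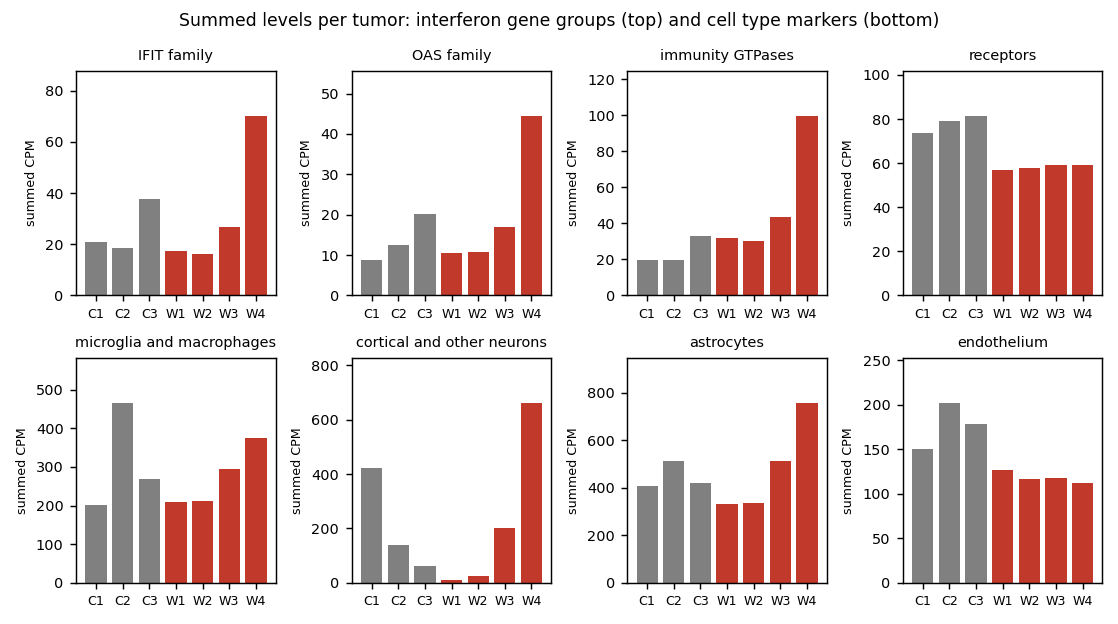
Summed CPM per tumor (C1 to C3, control replicates, grey; W1 to W4, WDR11OE replicates, red) of 4 groups of interferon genes (top) and 4 lists of cell type markers (bottom). The IFIT, OAS and GTPase genes peak in W4 at 70.3, 44.6 and 99.8 CPM, while the receptor and endothelial sums are lower in all 4 tumors labelled WDR11OE than in controls.

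The ligands themselves were barely detected. Of 14 interferon genes listed, 8 were at 0 counts in all 7 tumors, Ifng among them, and the 14 together had between 1 and 9 counts per tumor, so none passed the filter. Ifnb1 had 0, 0 and 2 counts in controls and 2, 2, 1 and 3 counts in tumors labelled WDR11OE. A count of 3, taken as the limit that a count of 0 allows, is 0.0329 to 0.0924 CPM in these libraries.

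Outside the 45 genes, 136 related genes were listed and 103 were tested, of which 11 were higher (10.7%, against 18.1% of all genes) and 13 lower (12.6%, against 15.8%). Both shares lie below those of all genes, so the genes named next are values of single genes and no result about the lists. Of 7 genes for other receptor chains and their signaling, Ifngr1 was higher and Ifngr2 lower (log2 fold changes 0.38 and −0.43, edgeR adjusted p = 0.0148 and 0.0193), both named after their values were seen. These 2 chains form the receptor of interferon gamma. Of 5 other IRF genes, 1 was lower, Irf2, a repressor of interferon genes (log2 fold change −0.80, edgeR adjusted p = 0.0225), also named after its values were seen.

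Of 15 adaptors and kinases of nucleic acid sensing, 3 were higher and 4 were lower. Aim2, a DNA sensor of the inflammasome, was at 1.92, 2.22 and 1.87 CPM in controls and at 3.86, 3.81, 4.56 and 6.15 CPM in tumors labelled WDR11OE (log2 fold change 1.20, standard error 0.23, edgeR adjusted p = 0.00745). E330016A19Rik, which the RefSeq table gives as an older symbol of Cgas, the sensor that makes cGAMP from DNA, was at 1.95, 1.79 and 2.39 CPM in controls and at 5.42, 4.52, 3.79 and 3.67 CPM in tumors labelled WDR11OE (log2 fold change 1.09, standard error 0.22, edgeR adjusted p = 0.00871). In both DNA sensors the groups did not overlap, and in the latter replicate 4 was the lowest of its group. Tbk1, the kinase that activates IRF3, was the other gene that was higher (log2 fold change 0.56, edgeR adjusted p = 0.00389), and the 4 lower genes were Traf3, Ticam1, Mavs and Traf6, all named after their values were seen.

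Of 8 negative regulators, 2 were higher and 4 lower. Irf2bp1, a corepressor of IRF2, was at 54.2, 60.2 and 67.9 CPM in controls and at 27.3, 30.0, 29.4 and 26.1 CPM in tumors labelled WDR11OE. The groups were far apart (log2 fold change −1.11, standard error 0.10, edgeR adjusted p = 0.000917). Of 63 further interferon-induced genes, 53 were tested, and 5 were higher and 3 lower. The 3 lower genes did not reach a 2-fold change, so the rule for naming genes, which asks for one, left only higher genes of this list. Ifi27l1 was at 4.67, 6.30 and 3.77 CPM in controls and at 20.03, 14.4, 15.1 and 21.4 CPM in tumors labelled WDR11OE, so that every tumor labelled WDR11OE was well above the controls (log2 fold change 1.85, standard error 0.24, edgeR adjusted p = 0.00171). Oas1c, at 0.119 to 0.222 CPM in controls and 0.412 to 0.647 CPM in tumors labelled WDR11OE, was higher (log2 fold change 1.61, standard error 0.34, edgeR adjusted p = 0.0105). Its level was low, and this call rests on 5 to 53 counts per tumor. Trim21, an intracellular receptor of antibodies, was at 0.945 to 1.38 CPM in controls and at 1.97 to 5.26 CPM in tumors labelled WDR11OE (log2 fold change 1.40, standard error 0.40, edgeR adjusted p = 0.0315). The further genes were highest in WDR11OE replicate 4 for 44 of 53, and without that tumor their median log2 fold change went from 0.58 to 0.09.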

How the data were processed

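The authors sequenced RNA of 7 mouse G3 MBs, mapped the reads to NCBIM37 and counted them per gene with HTSeq on a GENCODE annotation. The labels' processing notes also name CASAVA 1.7, STAR, BWA and the build mm9. What they deposited are raw counts of each gene in each tumor. The labels name a TruSeq RNA kit and the paper total stranded sequencing, and the strand setting of the counting is not given in the sources used here. Total counts were between 32116095 and 87141305 per tumor. The limit of 3 counts covers counting error only, and a deeper tumor has less of it. Standard errors of the log2 fold change come from the fit and include the spread between tumors. Reads were not tagged by molecule.

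From the counts, genes were kept by filterByExpr of edgeR 4.0.16 (R 4.3.3), given TMM factors and fitted with group as the only term, the quasi-likelihood test being two-sided, and p-values were adjusted by Benjamini-Hochberg over 17389 genes. The typical biological coefficient of variation was 34.6%. CPM are TMM-scaled, and log2 CPM have a prior count of 2. RPKM use exon lengths of GENCODE M1 on NCBIM37. Single values were compared by exact permutation over 35 splits of the tumors. The alternatives were limma 3.58.1 voom, the method of the study, DESeq2 1.42.0, a test against a 2-fold change, an adjusted p under 0.01, other scalings and filters, loess removal of GC or exon length trends, leaving out each tumor, and WDR11OE replicates 1 and 2, whose titles share a number, as 1 sample. The fit was tested on simulated data. Replicates numbered in accession order are names only. No pair of tumors within a group agreed within sampling noise (chi-square over degrees of freedom, 21.1 or more).

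The interferon genes and the lists of related genes and markers were chosen with earlier results of these data known. Values in every tumor were given by rule for genes with an adjusted p under 0.05 and the 3 most abundant per length of the others, and, for related genes, for up to 3 per list with an adjusted p under 0.05 and a 2-fold change. Genes named beyond that rule were chosen after their values were seen. For 10 of the 45 genes, exons of other genes lie over theirs (Cxcl10, Dhx58, Ifi35, Ifnar2, Irf1, Irf3, Irf7, Irf9, Oasl1 and Parp9). The exome data, qRT-PCR and survival of the study were not analysed here. Values of 1 related gene are not reported here.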

Additional observations from a re-analysis of the deposited data

Results flagged for a closer look

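Among the 4 tumors labelled WDR11OE, the level of 2 interferon genes in 1 tumor lay far from the other 3. The gap of WDR11OE replicate 4 to the next tumor was 0.902 of the group's whole range of log2 CPM for Rtp4 and 0.919 for Ifi44, which exceeds Dixon's 95% critical value for 4 samples. Chance flags about 1 in 20 groups, and 4.34% of all genes tested were past this value, against 4.44% of the 45 interferon genes. Of all genes, 1.20% were past it with replicate 4 as the highest tumor.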

How the results depend on the processing

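Ly6e, Bst2, Igtp, Ifnar1 and Samhd1 kept their direction in every setting and their call in every setting, apart from the test against a 2-fold change, which only Ly6e passed, and, for Samhd1, the removal of the trend on exon length. Irf3, Ifitm1 and Ifi35 kept their direction but lost the call at an adjusted p under 0.01 and when single tumors were left out. The depth left the interferon ligands, with at most 9 counts per tumor in all, below what can be tested. The causes of the changes listed here were not tested. No paired analysis was possible because the labels give the groups no shared replicate numbers.

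The interferon genes that passed numbered 5 higher and 3 lower. The higher count was 2 at an adjusted p under 0.01, 0 in the edgeR test against a 2-fold change (where 2 of 45 genes had an unadjusted p under 0.05), and 3 without the filter and also with WDR11OE replicates 1 and 2 as 1 sample. The lower count was 5 with DESeq2, 5 with its size factors in edgeR, 5 with a filter of 1 CPM in 3 tumors, and 1 in the test against a 2-fold change. Leaving out 1 tumor gave 2 to 5 higher and 3 to 5 lower genes, with 3 higher without control replicate 1 or 2 or WDR11OE replicate 1 or 2, 2 higher without WDR11OE replicate 3, and 5 lower without WDR11OE replicate 4. Of all genes, 3150 higher and 2744 lower calls became 1549 and 1552 at an adjusted p under 0.01 and 44 and 38 against a 2-fold change. The higher calls were 2093 without the filter and 1629 with WDR11OE replicates 1 and 2 as 1 sample, and leaving out 1 tumor gave 1560 to 2986, the lowest without WDR11OE replicate 1. Of the related genes, 11 higher and 13 lower calls became 4 and 5 at an adjusted p under 0.01 and 0 and 0 against a 2-fold change. Their higher calls were 17 with DESeq2 and 7 without the filter, they were 7 higher and 8 lower with WDR11OE replicates 1 and 2 as 1 sample, and leaving out 1 tumor gave 6 to 10 higher and 8 to 14 lower. Of the markers, 7 higher and 8 lower calls became 4 and 0 against a 2-fold change, and leaving out 1 tumor gave 6 to 14 lower, the highest without control replicate 1.

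Signs turned for genes that did not pass. With the GC trend removed, the log2 fold change was −0.0087 for Ifit2, −0.039 for Parp14, 0.11 for Oas3 and −0.41 for Ifi44. With the exon length trend removed it was 0.038 for Oas3 and −0.0895 for Ifitm2, and with WDR11OE replicates 1 and 2 as 1 sample it was 0.092 for Oas3. For Ifi44 it was −7e-04 with limma voom, −0.0626 with DESeq2, −0.0599 with its size factors, −0.0611 without the filter and −0.0286 with 1 CPM in 3 tumors. Leaving out each tumor gave −0.15 to 0.22 for Stat2, −0.0305 to 0.82 for Ifih1, −0.16 to 0.30 for Dhx58, −0.0747 to 1.08 for Zbp1, −0.30 to 1.09 for Ifit1, −0.40 to 0.60 for Ifit2, −0.22 to 0.64 for Ifit3, −0.24 to 0.72 for Oas2 and −0.60 to 0.17 for Oas3. It gave −0.32 to 0.91 for Oasl2, −0.0915 to 0.77 for Rtp4, −0.34 to 0.78 for Rsad2, −0.41 to 0.28 for Parp14, −0.91 to 0.51 for Ifi44, −0.0356 to 0.65 for Xaf1 and −2.03 to 0.0304 for Cxcl10. Over the scalings the median log2 fold change of all genes was 0.04 to 0.12.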
